A study of Saccharomyces cerevisiae with 15 samples.

Results

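Of the 6692 yeast features in the deposited count table, 48 genes of large (60S) ribosomal subunit assembly were taken, and others are counted further below. The 48 encode proteins that help build this subunit without becoming part of the finished ribosome. They were chosen by systematic name from a list of helicases, GTPases and other assembly factors of this subunit, among them DRS1 (YLL008W), SPB4 (YFL002C), DBP6 (YNR038W), EBP2 (YKL172W), NOP7 (YGR103W), ERB1 (YMR049C), NOG1 (YPL093W) and NMD3 (YHR170W). The rule for the list uses no measured value, but the list was chosen with earlier results of these data known. All 48 had enough counts to be tested. The libraries are rRNA-depleted, stranded RNA-seq of budding yeast in 5 groups of 3: strains lacking SPT3 (spt3∆::kanMX4), SPT8 (spt8∆::kanMX4) or GCN5 (gcn5∆::kanMX4), each with sulfometuron (SM), then wild type (WT) with SM, and WT without SM. All 5 groups, WT included, are mating type a and carry his3∆1, leu2∆, met15∆ and ura3∆, the deletions of the BY4741 laboratory strain. Cells grew at 30 °C in synthetic complete medium without isoleucine and valine to an OD600 of 0.6 to 0.8, and SM was given at 1 µg/ml for 25 min. SM blocks the making of isoleucine and valine and so induces Gcn4, the activator of amino acid synthesis genes. Spt3, Spt8 and Gcn5 are subunits of the coactivator SAGA: Spt3 and Spt8 contact the TATA-binding protein, and Gcn5 is the histone acetyltransferase. No deletion strain without SM was analysed here, so a difference between a deletion strain and WT cannot be told apart into one present before SM and one that arose with it. Whether a strain is 1 clone, and what separates its 3 libraries, the labels do not say, so p-values measure the spread between these libraries, which may be technical.

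Assembly of the 60S subunit starts in the nucleolus on the rRNA precursor made by RNA polymerase I, goes on in the nucleoplasm and ends in the cytoplasm. Helicases, GTPases and scaffold proteins join and leave the particle in turn, and the last factors to leave keep it from joining the small subunit too soon. In budding yeast the genes of these factors form the ribosome biogenesis regulon, which is known for being switched on in rich growth and down under stress, and whose promoters are known for the PAC and RRPE motifs. PAC is bound by the repressors Dot6 and Tod6, and RRPE by Stb3.

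The promoters of the 48 genes shared both motifs, as read from the R64 genome, on which all 48 coding regions have the same coordinates as in the count table. In the 300 bases before the start codon, on either strand, the PAC core GATGAG was present in 45 of 48 promoters (93.8%), against 19.1% of the 6001 protein-coding genes. The RRPE core AAAATTT was present in 46 of 48 (95.8%), against 24.4% of all. Both cores stood in 43 of the 48 (89.6%, against 7.53% of all), and no promoter of the 48 lacked both, while 64% of all promoters did. The median PAC match began at base -119 and the median RRPE match at base -141, counted from the start codon. TATAAA was found in 47.9% of the 48 and 48.2% of all, the Gcn4 core TGACTC in 4.17% and 7.77%, and the Msn2/Msn4 core AGGGG in 10.4% and 22.2%. Matches of different motifs were allowed to overlap, as TATAAA and AAAATTT can, and a match is a description of the sequence, not a bound site. For large-subunit ribosomal protein genes, a regulon with other promoter motifs, the shares of PAC and RRPE cores were 9.21% and 27.6% of 76, and for 40S assembly factors 91.8% and 93.9% of 49.

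**Figure D1:**
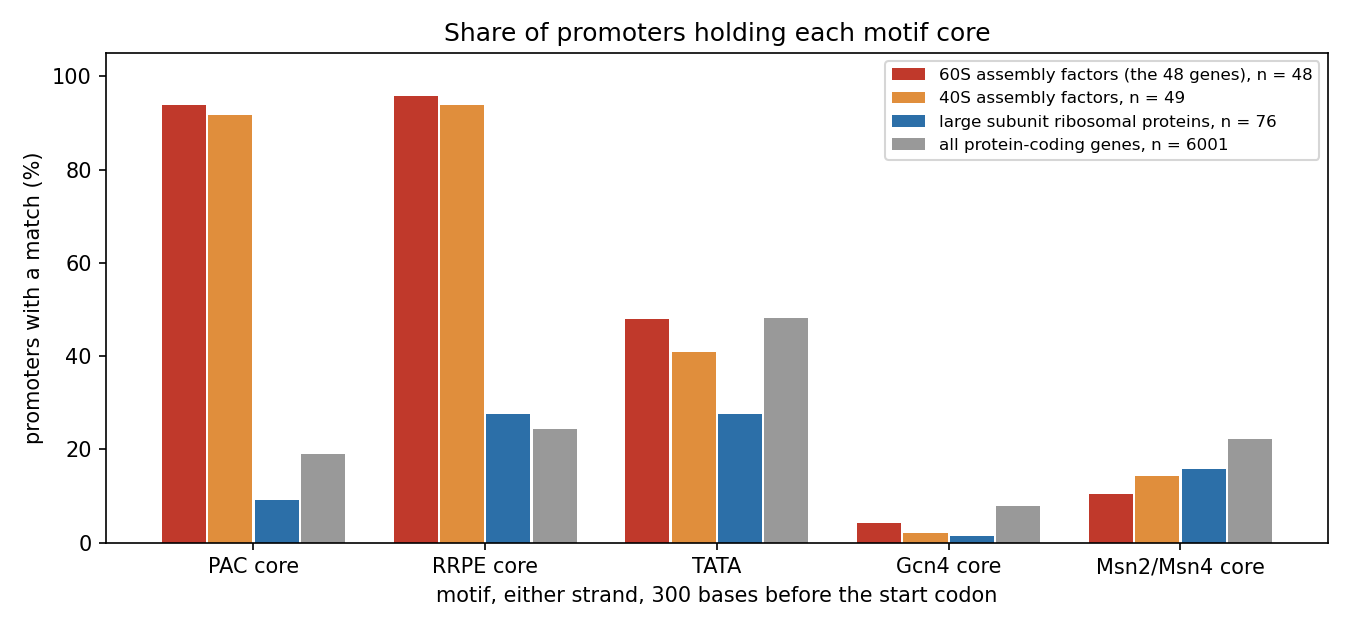
Share of promoters (vertical axis, percent) with each motif core on either strand of the 300 bases before the start codon, for the 48 60S assembly factor genes, 40S assembly factors, large-subunit ribosomal protein genes and all protein-coding genes. PAC and RRPE cores stand at 93.8% and 95.8% in the 48 genes and at 19.1% and 24.4% in all genes.

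Stretches of 5 promoters show the arrangement, with PAC and RRPE cores in capitals; overlapping matches run together. SPB1 (chrIII:31199-31368, + strand) and NOP4 (chrXVI:469689-469858, + strand) had the largest difference between spt3∆ and WT in SM, TIF6 (chrXVI:593150-593319, − strand) and CIC1 (chrVIII:210598-210767, + strand) the smallest. RRS1 (chrXV:868090-868259, + strand) was added after its values were seen, since it behaved unlike most of the 48 in gcn5∆. Each is given 5′ to 3′ from base -250 to base -81 before the start codon, in R64 coordinates.
SPB1: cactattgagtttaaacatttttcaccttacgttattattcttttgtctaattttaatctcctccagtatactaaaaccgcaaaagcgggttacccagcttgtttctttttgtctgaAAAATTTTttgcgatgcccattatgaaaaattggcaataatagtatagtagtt
NOP4: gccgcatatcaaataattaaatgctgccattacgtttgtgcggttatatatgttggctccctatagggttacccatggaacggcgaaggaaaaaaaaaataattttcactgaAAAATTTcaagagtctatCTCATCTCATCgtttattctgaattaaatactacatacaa
TIF6: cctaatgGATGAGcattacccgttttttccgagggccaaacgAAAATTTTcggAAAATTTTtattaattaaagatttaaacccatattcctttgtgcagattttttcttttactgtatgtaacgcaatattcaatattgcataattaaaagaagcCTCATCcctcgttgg
CIC1: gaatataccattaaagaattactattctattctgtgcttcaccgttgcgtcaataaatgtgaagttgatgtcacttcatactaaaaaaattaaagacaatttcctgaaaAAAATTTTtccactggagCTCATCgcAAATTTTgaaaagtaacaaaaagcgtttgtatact
RRS1: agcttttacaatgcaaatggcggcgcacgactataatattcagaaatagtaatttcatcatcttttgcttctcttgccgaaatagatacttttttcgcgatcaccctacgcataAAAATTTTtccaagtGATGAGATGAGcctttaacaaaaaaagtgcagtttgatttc
SPB1, the gene with the largest difference, has an RRPE core and no PAC core in this window, and TIF6, the gene with the smallest, has both. Members with both cores had a median log2 difference of 1.12 between spt3∆ and WT (n = 43), the 3 with an RRPE core only (SPB1, RIX1 and IPI3) 1.15, and the pair with a PAC core only (MAK5 and RRP1) 1.25.

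The libraries held 24.8 to 45.7 M yeast counts, and the 48 genes had between 260 and 17568 raw counts each in every library. Deleted genes gave 1 to 3 raw counts for SPT3 in spt3∆ (711 to 1361 in the other groups), 11 to 17 for SPT8 in spt8∆ (668 to 1761) and 12 to 29 for GCN5 in gcn5∆ (2234 to 5569). Levels below are counts scaled by synthetic spike-in RNAs, which were added per mass of total RNA, so they are not per cell, and fewer cells of a type and less RNA per cell cannot be told apart in such bulk samples. Library 1 of spt3∆ and library 3 of gcn5∆ stood apart, with 48.9 and 43 M yeast counts per unit of spike-in factor against 34.6 and 37.3 in the other spt3∆ libraries and 30.3 and 29.4 in the other gcn5∆ libraries. Counts of called genes in spt3∆ and gcn5∆ against WT are given with and without both libraries, and with TMM. TMM is a scaling on the yeast genes themselves that takes out such a shift in scale but keeps both libraries. On that scale the 48 genes summed to 234623 in library 3 of gcn5∆, against 206067 and 214292 in libraries 1 and 2. The scalings differ in the median of all genes, which is 0.54 log2 for SM in WT, 0.11, 0.13 and −0.19 for spt3∆, spt8∆ and gcn5∆ against WT, −0.01 for spt3∆ against spt8∆, and 0.31 and 0.30 for spt3∆ and spt8∆ against gcn5∆ by spike-ins, and at most 0.04 in size with TMM. Library names fall in 2 sets, one with spt3∆ and both WT groups and the other with spt8∆ and gcn5∆, and the labels do not say what a set stands for. All 7 genes specific to a cells were detected in every library; their summed scaled counts were 75076 to 109690 in gcn5∆, 127574 to 183019 in spt3∆, 132872 to 155423 in spt8∆, 154554 to 181572 in WT with SM and 89519 to 102054 in WT without SM, and 6 of the 7 were lower in gcn5∆ than in WT. The 4 alpha-specific genes summed to 8915 to 11936 in gcn5∆, 9772 to 14098 in spt3∆, 10836 to 12488 in spt8∆, 9754 to 11787 in WT with SM and 4438 to 4679 in WT without SM. With SM in WT all 7 a-specific and all 4 alpha-specific genes were higher by spike-ins, and 4 and 3 of them with TMM. The part of these markers in the results below was not tested.

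Together the 48 genes took more of the yeast RNA in each deletion strain than in WT. They made up 0.632%, 0.619% and 0.589% of yeast counts in the spt3∆ libraries, 0.472%, 0.456% and 0.395% in spt8∆ and 0.55%, 0.594% and 0.641% in gcn5∆, against 0.332%, 0.312% and 0.297% in WT with SM and 0.317%, 0.348% and 0.333% in WT without SM. Every deletion library lay above every WT library in this share, which needs no spike-ins, and WT with and without SM overlapped. By spike-ins spt3∆ was the highest of the 5 groups for 41 of the 48 genes, gcn5∆ for 6 and spt8∆ for 1, and with TMM spt3∆ for 23, gcn5∆ for 24 and WT with SM for 1. This ranking uses means that include the libraries that stood apart. It was not counted over all genes, so it describes the levels and not a trait of the 48. The median coefficient of variation of the 48 genes within a group was 20.8% in spt3∆ and 30.8% in gcn5∆, the groups with a library apart, and 9.5% in spt8∆, 13.2% in WT with SM and 8.2% in WT without SM.

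**Figure D2:**
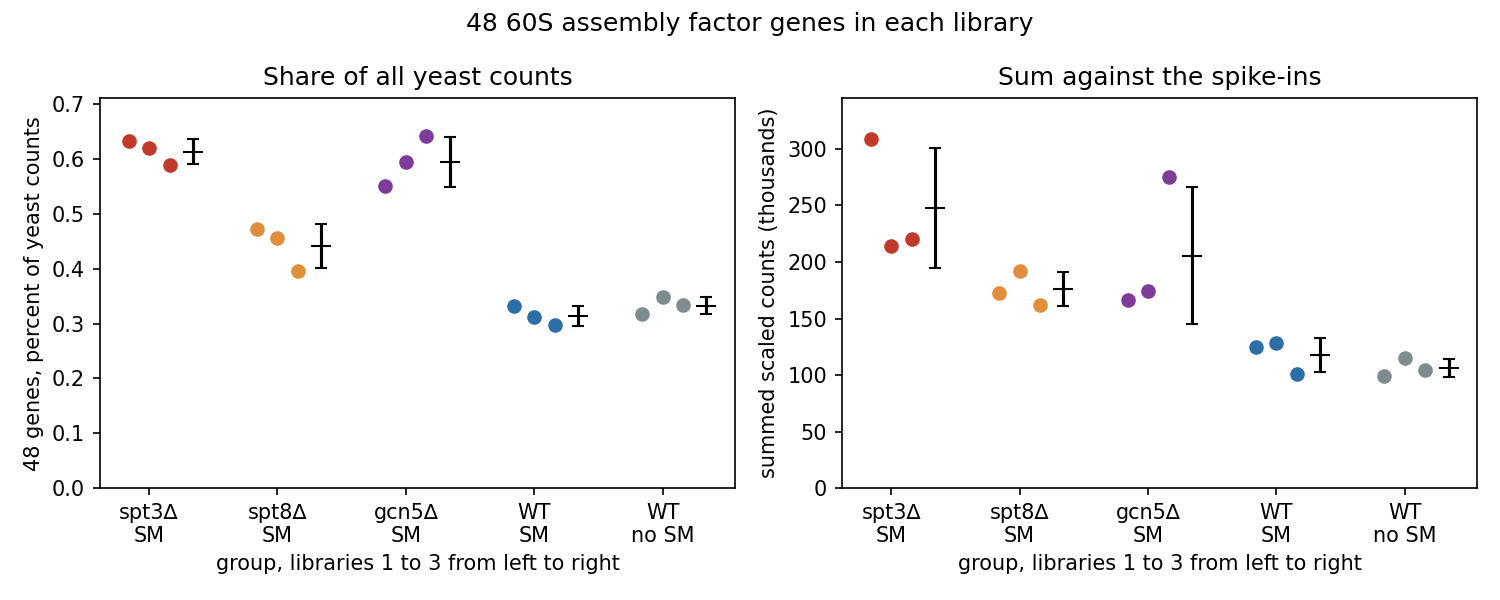
Summed counts of the 48 genes in each library (points, libraries 1 to 3 of a group from left to right; bars, mean and SD, n = 3), as percent of yeast counts on the left and as spike-in-scaled counts on the right. The deletion libraries lie above both WT groups in both panels, and library 1 of spt3∆ and library 3 of gcn5∆ are far above their group only on the spike-in scale.

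**Figure D3:**
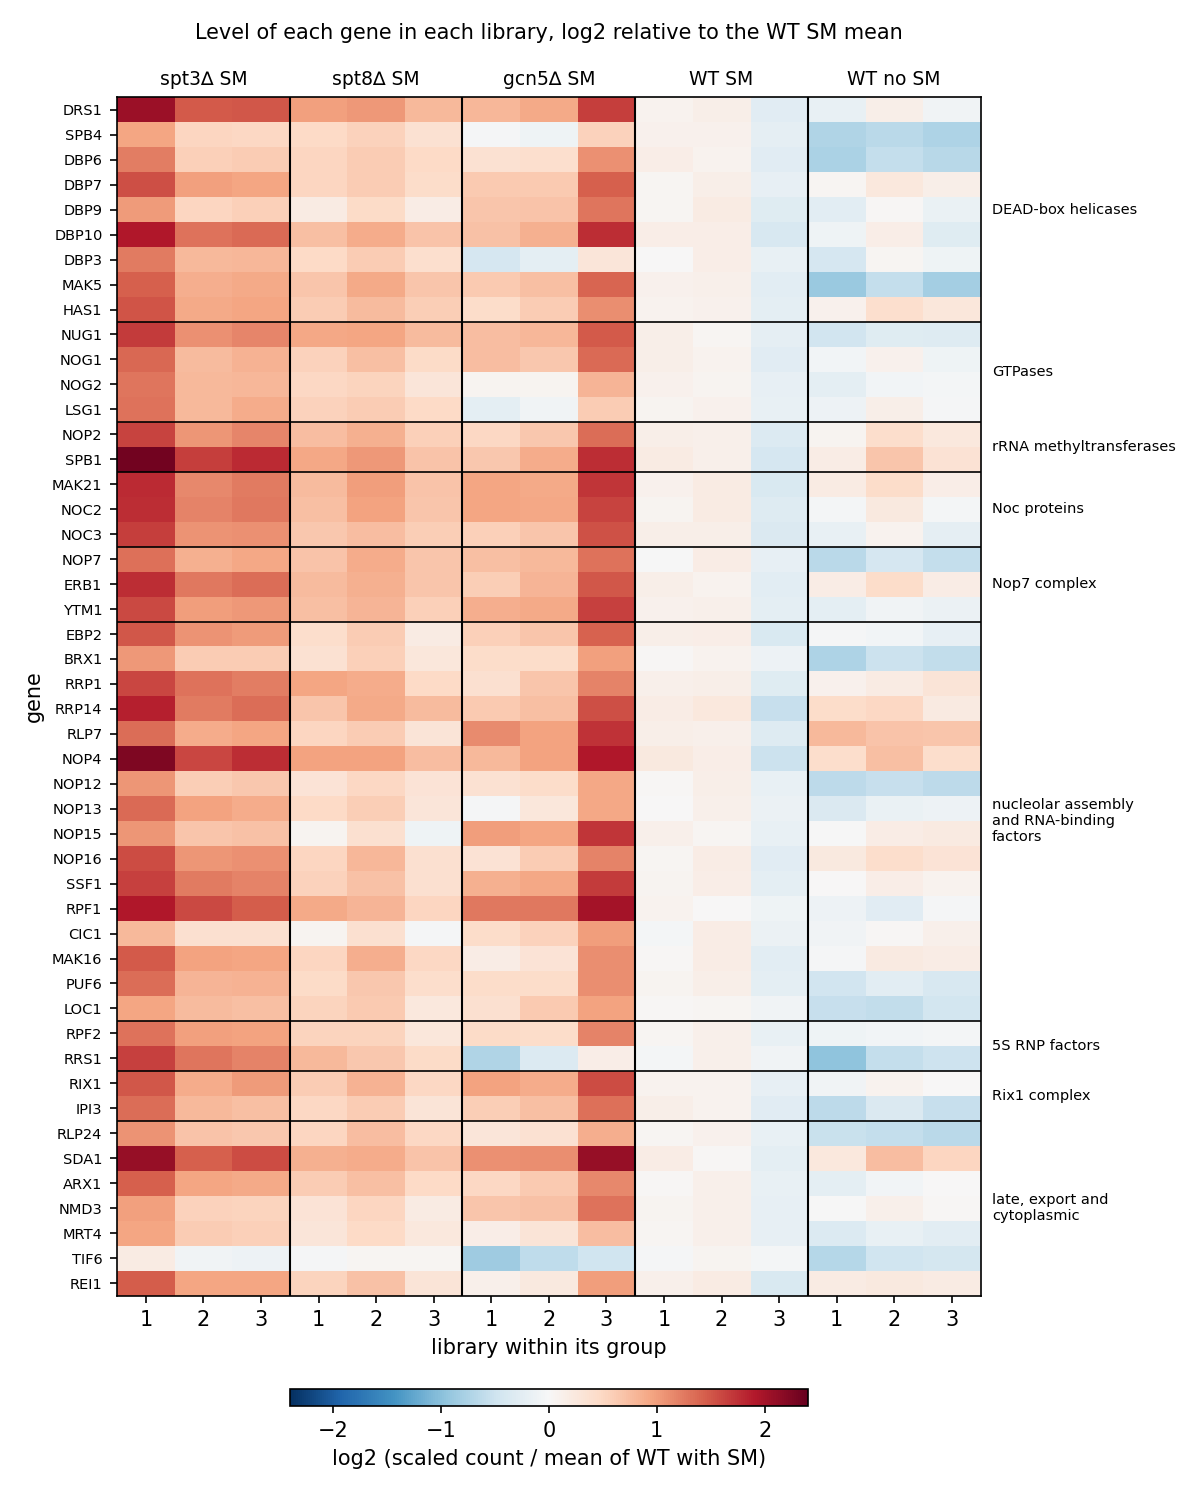
Level of each of the 48 genes (rows, by role) in each of the 15 libraries (columns), as log2 of the scaled count over the mean of WT with SM. All rows but TIF6 are red across spt3∆ and most are paler in spt8∆, and TIF6, RRS1 and DBP3 stand out as pale or blue in gcn5∆.

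Nearly the whole set was higher in spt3∆ than in WT, both in SM. Of the 48 genes 47 rose and none fell, at an edgeR Benjamini-Hochberg (BH) adjusted p below 0.05, where 21.7% of all genes tested rose and 14% fell. The median log2 difference was 1.13 in the 48 genes and 0.11 in all, and 33 of the 48 were called and at least 2-fold higher, which held for 4.43% of all genes. With TMM the count was again 47 higher and 0 lower, where 33.9% of all genes were higher and 31.4% lower, with a median of 1.02. For 47 of the 48 all 3 spt3∆ libraries lay above all 3 WT libraries, which held for 30% of all genes. Leaving out library 1 of spt3∆ and library 3 of gcn5∆ left 47 higher with a median of 0.94 and every role's count as given below. Of all genes 23.9% were higher in that setting, with a median of −0.03. The number at least 2-fold higher was then 19 (2.12% of all genes), and with TMM it was 25 (3.03%). Both groups here belong to the same set of library names.

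The largest rise was that of SPB1 (YCL054W, chrIII:31449-33974), the methyltransferase that modifies the peptidyl transferase centre of 25S rRNA. SPB1 had scaled counts of 6052, 3850 and 4189 in spt3∆, 2325, 2498 and 1945 in spt8∆ and 1907, 2264 and 4137 in gcn5∆. In WT SPB1 had 1393, 1331 and 924 with SM and 1371, 1927 and 1540 without SM. All spt3∆ values lie above those of both WT groups, with a log2 difference from WT in SM of 1.95 (SE 0.23, edgeR BH-adjusted p = 1.21e-08). The other rRNA methyltransferase, NOP2, rose too, by 1.31. NOP4 (YPL043W, chrXVI:469939-471996), an RNA-binding protein of early pre-60S particles, came second. NOP4 counted 3533, 2264 and 2527 in spt3∆, 1454, 1453 and 1239 in spt8∆ and 1278, 1448 and 2812 in gcn5∆ on this scale. WT had 877, 834 and 518 with SM and 998, 1225 and 997 without SM. Its groups spt3∆ and WT do not overlap, and the log2 difference was 1.90 (SE 0.23, edgeR BH-adjusted p = 2.74e-08). An antisense feature that overlaps NOP4 holds counts equal to 20.8% of those of NOP4, and no source used here states which strand was counted, so part of this value may belong to it. SDA1, which is needed for pre-60S particles to leave the nucleus, was the third. SDA1 had 3730, 2376 and 2589 scaled counts in spt3∆, 1589, 1613 and 1398 in spt8∆ and 1883, 1894 and 3735 in gcn5∆. It had 989, 892 and 744 in WT with SM and 1048, 1470 and 1249 in WT without SM. Every spt3∆ library was above every WT library, with a log2 difference of 1.73 (SE 0.22, edgeR BH-adjusted p = 6.28e-08).

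All 9 DEAD-box helicases, which remodel RNA and protein contacts in the particle, rose in spt3∆, by 0.67 to 1.70 log2. DRS1 (chrXII:131729-133987), needed for processing of the 27S precursor, was the highest of them. DRS1 had scaled counts of 8315, 5545 and 5622 in spt3∆, 3938, 4129 and 3438 in spt8∆ and 3495, 3784 and 6344 in gcn5∆. In WT DRS1 had 2129, 2215 and 1663 with SM and 1781, 2205 and 1893 without SM. The spt3∆ and WT ranges are apart by more than the width of the WT range, at 1.70 (SE 0.21, edgeR BH-adjusted p = 2.79e-08). DBP6, which acts in the earliest particles, changed less. DBP6 counted 15493, 9781 and 10030 in spt3∆, 9391, 9973 and 9211 in spt8∆ and 8432, 8663 and 14111 in gcn5∆ on this scale. WT had 7326, 6970 and 5425 with SM and 3883, 4406 and 4119 without SM. Its spt3∆ libraries are all above WT with SM, at 0.84 (SE 0.20, edgeR BH-adjusted p = 0.00107). SPB4, a later-acting helicase, was the smallest of the 9. SPB4 had 4695, 3495 and 3426 scaled counts in spt3∆, 3382, 3566 and 3144 in spt8∆ and 2387, 2272 and 3587 in gcn5∆. It had 2621, 2611 and 2089 in WT with SM and 1473, 1562 and 1470 in WT without SM. It too does not overlap between spt3∆ and WT in SM, at 0.67 (SE 0.18, edgeR BH-adjusted p = 0.00453).

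The 4 GTPases, which act as switches at defined steps, rose by 0.97 to 1.34, most for NUG1. NOG1 is the GTPase that marks nuclear particles. NOG1 had scaled counts of 20601, 13398 and 14227 in spt3∆, 11664, 13066 and 10836 in spt8∆ and 13175, 12473 and 20467 in gcn5∆. In WT NOG1 had 8791, 8455 and 6551 with SM and 7552, 8555 and 7348 without SM. It was higher in all 3 spt3∆ libraries than in any WT library, by 1.02 (SE 0.20, edgeR BH-adjusted p = 7.58e-05). Among scaffold proteins, all 3 Noc proteins rose by 1.31 to 1.43, most for NOC2. The 3 members of the Nop7 complex, which holds the rRNA domains in place, rose by 1.05 to 1.48. ERB1 counted 9250, 6435 and 6787 in spt3∆, 4541, 4863 and 4279 in spt8∆ and 4032, 4719 and 7612 in gcn5∆ on this scale. WT had 2977, 2842 and 2262 with SM and 3047, 3648 and 3041 without SM. ERB1 was the largest of that complex, with groups that do not overlap, at 1.48 (SE 0.20, edgeR BH-adjusted p = 3.04e-07). NOP7 had 12580, 9016 and 9568 scaled counts in spt3∆, 8058, 9249 and 7942 in spt8∆ and 8288, 8600 and 12449 in gcn5∆. It had 5015, 5690 and 4350 in WT with SM and 3198, 3773 and 3390 in WT without SM. NOP7, after which the complex is named, differed by 1.05 (SE 0.19, edgeR BH-adjusted p = 2.98e-05). Its spt3∆ values lie above WT, and overlap with those of gcn5∆.

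Every one of the 16 nucleolar assembly and RNA-binding factors rose, by 0.53 to 1.90. EBP2 had scaled counts of 2416, 1814 and 1750 in spt3∆, 1157, 1318 and 994 in spt8∆ and 1291, 1374 and 2316 in gcn5∆. In WT EBP2 had 954, 964 and 671 with SM and 848, 829 and 756 without SM. EBP2, a nucleolar scaffold protein, had spt3∆ values well above both WT groups, at 1.21 (SE 0.20, edgeR BH-adjusted p = 1.16e-05). CIC1, which binds the spacer between the 5.8S and 25S rRNAs, had the smallest called rise of the 48. CIC1 counted 4619, 3518 and 3515 in spt3∆, 2817, 3526 and 2638 in spt8∆ and 3633, 3961 and 5388 in gcn5∆ on this scale. WT had 2613, 3028 and 2431 with SM and 2548, 2753 and 2914 without SM. Here spt3∆ and WT do not overlap, by a narrow margin, at 0.53 (SE 0.18, edgeR BH-adjusted p = 0.022), and the call was lost without library 1 of spt3∆ and without library 1 or 3 of WT with SM. The 5S RNP factors RPF2 and RRS1, which load the 5S rRNA with its proteins, rose by 1.10 and 1.38, and RIX1 and IPI3 of the Rix1 complex, which prepares the particle for export, by 1.15 and 0.97. SSF1 has a near-identical paralogue, SSF2, and no source used here states how shared reads were counted, so its value is uncertain.

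Of the 7 late, export and cytoplasmic factors 6 rose, by 0.71 to 1.73. NMD3 had 6126, 4552 and 4496 scaled counts in spt3∆, 3851, 4441 and 3553 in spt8∆ and 4867, 5030 and 7598 in gcn5∆. It had 3242, 3343 and 2676 in WT with SM and 3078, 3344 and 3143 in WT without SM. NMD3, the export adapter of the 60S subunit, was higher in spt3∆ than WT in all libraries, at 0.71 (SE 0.19, edgeR BH-adjusted p = 0.00277). The exception among all 48 was TIF6 (YPR016C, chrXVI:592332-593069), which encodes eIF6, the factor that blocks subunit joining until late maturation. TIF6 had scaled counts of 8239, 6702 and 6601 in spt3∆, 7053, 7401 and 7335 in spt8∆ and 3954, 4683 and 5144 in gcn5∆. In WT TIF6 had 7011, 7465 and 6962 with SM and 4470, 5146 and 5320 without SM. The spt3∆, spt8∆ and WT values in SM overlap, at a log2 difference between spt3∆ and WT of 0.01 (SE 0.17, edgeR BH-adjusted p = 0.981). TIF6 also had the highest level per kb of coding length of the 48 in WT with SM, 9683 scaled counts per kb, where the lowest was 318.2 for RRP14 and the median 1408.

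**Figure D4:**
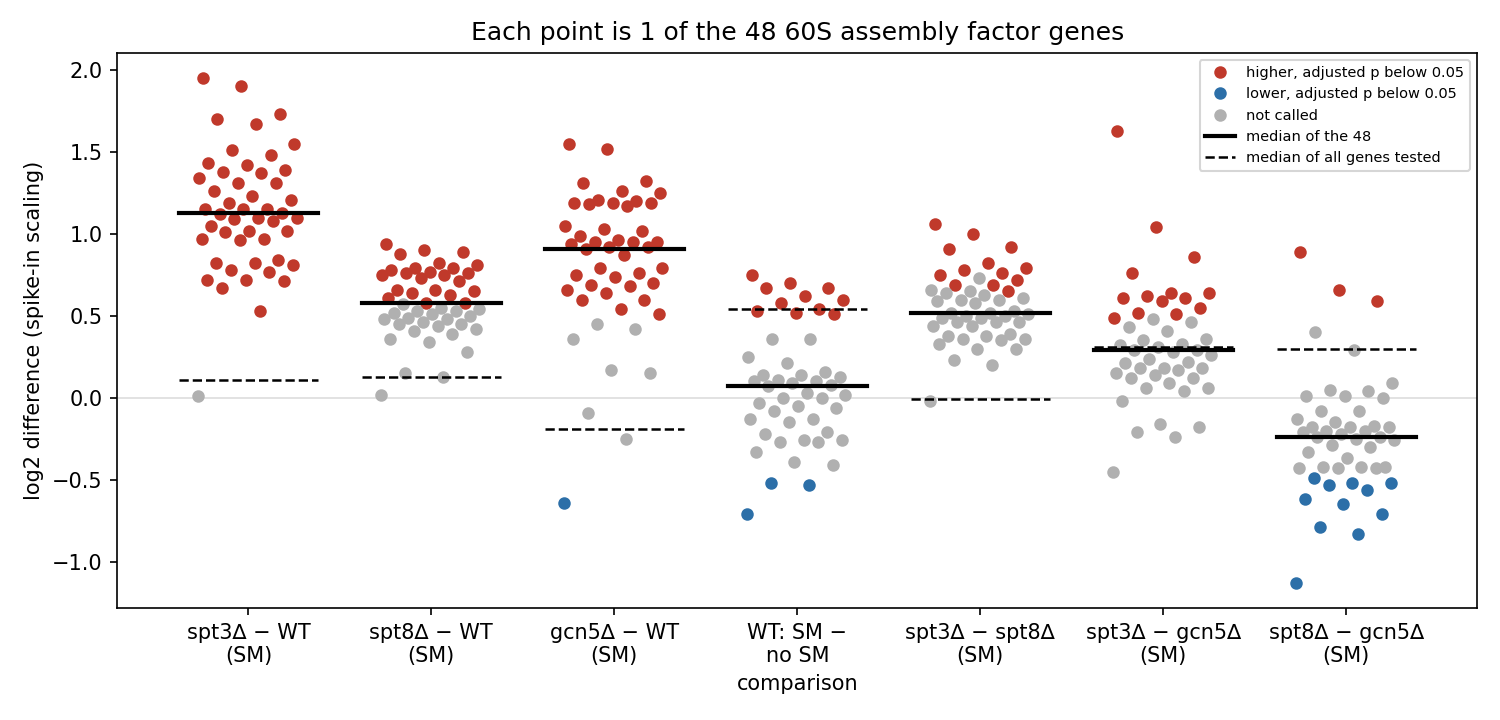
Log2 difference of each of the 48 genes (points, spike-in scaling) in 7 comparisons; red and blue points have an edgeR BH-adjusted p below 0.05, solid lines are the median of the 48 genes and dashed lines the median of all genes tested. The solid line is at 1.13 for spt3∆ − WT, 0.58 for spt8∆ − WT, 0.91 for gcn5∆ − WT and 0.07 for SM in WT.

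The same direction was seen in spt8∆, with smaller differences from WT in SM. By edgeR with BH adjustment 24 of the 48 genes rose and none fell, against 6.57% and 5.58% of all genes, and the median was 0.58 (0.13 over all genes). With TMM 44 rose and none fell, against 23.9% and 21.1% of all, with a median of 0.46. For 44 genes the spt8∆ and WT libraries did not overlap, which held for 31.6% of all genes. The called count depended on single libraries: it was 5 without library 3 of WT with SM, 6 without library 2 of spt8∆ and 10 without library 1 of spt8∆. Of all genes 1.83%, 1.8% and 3.11% rose in these settings, and the median of the 48 genes was 0.46, 0.50 and 0.58. The sets of library names separate these 2 groups, so strain and set cannot be told apart.

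DRS1 had the largest difference in spt8∆, 0.94 (SE 0.20, edgeR BH-adjusted p = 0.00136), followed by NOP4 with 0.90 (SE 0.23, edgeR BH-adjusted p = 0.00643) and SPB1 with 0.89 (SE 0.22, edgeR BH-adjusted p = 0.00582). By role, all 3 Noc proteins (largest MAK21, 0.82), all 3 Nop7 complex members (largest ERB1, 0.76) and both methyltransferases rose. Of the helicases 4 of 9 rose, of the GTPases 2 of 4 (largest NUG1, 0.88), of the nucleolar factors 5 of 16, of the late factors 3 of 7 (largest SDA1, 0.81), and 1 each of the 5S RNP factors (RRS1, 0.64) and the Rix1 complex (RIX1, 0.65). The smallest difference was again that of TIF6, 0.02 (SE 0.17, edgeR BH-adjusted p = 0.952). The next smallest was that of NOP15, an RNA-binding factor of the same rRNA spacer as CIC1. NOP15 counted 1446, 1107 and 1123 in spt3∆, 725, 910 and 647 in spt8∆ and 1399, 1332 and 2273 in gcn5∆ on this scale. WT had 755, 715 and 611 with SM and 687, 787 and 801 without SM. Its spt8∆ values overlap with both WT groups, at 0.13 (SE 0.19, edgeR BH-adjusted p = 0.709), while all its gcn5∆ values are above them.

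In gcn5∆ most of the 48 genes were higher than in WT as well, but several stood out. By edgeR with BH adjustment 40 rose and 1 fell, where 10.5% of all genes rose and 30.4% fell, and the median was 0.91 against −0.19 over all genes. With TMM 45 rose and 1 fell, against 34.2% and 33.4% of all, with a median of 1.10. For 39 genes all gcn5∆ libraries lay above all WT libraries, which held for 11.5% of all genes, and 16 were called and at least 2-fold higher (2.67% of all). Without library 3 of gcn5∆ 38 rose and the median was 0.62. Of all genes 7.52% then rose and 52.3% fell, with a median of −0.40. Without it and library 1 of spt3∆ 3 genes at least 2-fold higher were left (1.8% of all). These were RPF1, SDA1 and RLP7, at 1.26, 1.11 and 1.05. With TMM, which kept library 3 of gcn5∆, the number was 26 (4.4%). Strain and set of library names cannot be told apart here either.

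RPF1, of the Brix family of rRNA-binding factors, had the largest rise in gcn5∆. RPF1 had 1662, 1301 and 1202 scaled counts in spt3∆, 823, 768 and 627 in spt8∆ and 1050, 1048 and 1741 in gcn5∆. It had 460, 442 and 408 in WT with SM and 401, 361 and 426 in WT without SM. All gcn5∆ values exceed those of both WT groups, with a difference from WT in SM of 1.55 (SE 0.20, edgeR BH-adjusted p = 6.25e-08). SDA1 rose by 1.52 (SE 0.22, edgeR BH-adjusted p = 6.78e-07). RLP7, a ribosomal-protein-like factor at the rRNA spacer, was the third. RLP7 had scaled counts of 1694, 1243 and 1296 in spt3∆, 957, 1023 and 833 in spt8∆ and 1468, 1309 and 2234 in gcn5∆. In WT RLP7 had 737, 728 and 541 with SM and 1153, 1070 and 1065 without SM. Its gcn5∆ values are above those of WT in SM and without SM, at 1.32 (SE 0.19, edgeR BH-adjusted p = 1.04e-06). Of the helicases 7 of 9 rose (largest DBP10, 1.19), of the GTPases 2 of 4 (largest NUG1, 1.05), of the nucleolar factors 15 of 16 and of the late factors 5 of 7. All members of the methyltransferases (largest SPB1, 1.19), the Noc proteins (largest MAK21, 1.25), the Nop7 complex (largest YTM1, 1.19) and the Rix1 complex (largest RIX1, 1.17) rose, and of the 5S RNP factors RPF2 did, by 0.74. Without both libraries that stood apart the counts were 14 of the nucleolar and 4 of the late factors, since MAK16 (0.26) and REI1 (0.18) were then not called.

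TIF6 was the gene that fell in gcn5∆, at −0.64 (SE 0.17, edgeR BH-adjusted p = 0.00291); its gcn5∆ values lie below all those of WT with SM and overlap with those of WT without SM. The fall held when any single library was left out, between −0.73 and −0.54, and with TMM it was −0.43. The 7 genes without a call were DBP3, LSG1, SPB4, RRS1, NOG2, MRT4 and NOP13. RRS1 (YOR294W, chrXV:868340-868951), partner of RPF2 in a complex, stood apart from that partner. RRS1 counted 2661, 2078 and 1950 in spt3∆, 1469, 1343 and 1175 in spt8∆ and 517, 685 and 953 in gcn5∆ on this scale. WT had 832, 928 and 805 with SM and 439, 574 and 604 without SM. In gcn5∆ its values overlap with WT in SM, at −0.25 (SE 0.19, edgeR BH-adjusted p = 0.318), although it rose in both other deletion strains. With TMM the difference was −0.07. Without library 3 of gcn5∆ it was −0.50 and passed the threshold as lower, where 52.3% of all genes fell, with a median of −0.40. DBP3, a helicase needed for efficient processing at a site in the first spacer, also overlapped. DBP3 had 7173, 5136 and 5252 scaled counts in spt3∆, 4197, 4600 and 3986 in spt8∆ and 2264, 2548 and 3706 in gcn5∆. It had 3014, 3358 and 2666 in WT with SM and 2290, 3130 and 2810 in WT without SM. Its difference was −0.09 (SE 0.19, edgeR BH-adjusted p = 0.753), and with TMM it was 0.10. Without library 3 of gcn5∆ alone it was −0.32 with no call. Without both libraries that stood apart it was again −0.32 and was called lower. Library 1 of spt3∆ is not part of this comparison but enters the spread shared by all groups. The median of all genes was −0.40 in both settings. LSG1, the cytoplasmic GTPase that releases NMD3, gave 0.15 (SE 0.19, edgeR BH-adjusted p = 0.571). LSG1 had scaled counts of 4463, 3113 and 3333 in spt3∆, 2640, 2748 and 2516 in spt8∆ and 1532, 1711 and 2767 in gcn5∆. In WT LSG1 had 1882, 1948 and 1598 with SM and 1670, 1999 and 1771 without SM. The LSG1 values of gcn5∆ spread to both sides of those of WT, while those of spt3∆ and spt8∆ are all above WT; with TMM LSG1 was higher in gcn5∆ by 0.32 and SPB4 by 0.36.

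**Figure D5:**
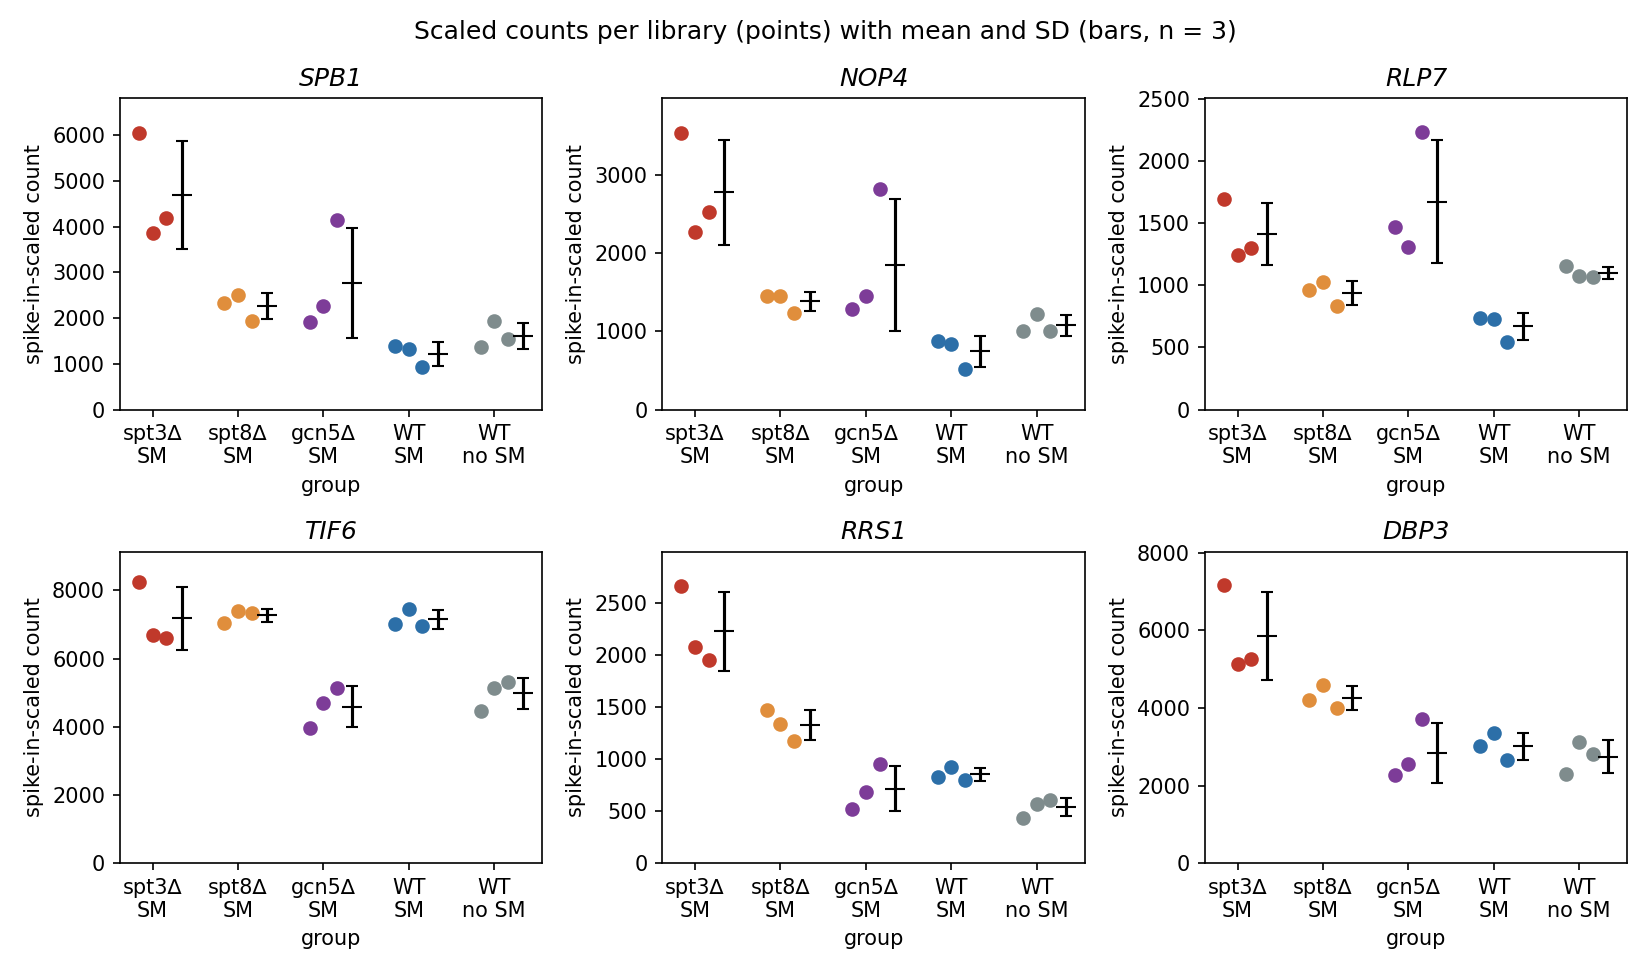
Scaled counts of 6 genes in each library (points, libraries 1 to 3 of a group from left to right) with mean and SD (bars, n = 3). SPB1, NOP4 and RLP7 are higher in all 3 deletion strains than in WT with SM, while TIF6 in spt3∆ and spt8∆ and RRS1 and DBP3 in gcn5∆ overlap with WT with SM, and TIF6 in gcn5∆ lies below it.

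The deletion strains were also set against each other, all in SM. Between spt3∆ and spt8∆, 13 of the 48 genes were higher in spt3∆ and none lower, where 1.1% of all genes were higher and 2.39% lower, with a median of 0.52 against −0.01 over all genes. With TMM 47 were higher and none lower, against 16.9% and 14.3% of all. SPB1 differed most, 1.06 (SE 0.22, edgeR BH-adjusted p = 0.00391), then NOP4 by 1.00 (SE 0.23, edgeR BH-adjusted p = 0.00657) and SDA1 by 0.92 (SE 0.21, edgeR BH-adjusted p = 0.00953), and the smallest differences were those of TIF6 (−0.02) and SPB4 (0.20). In the other roles the largest were DBP10 (0.79), NOG2 (0.52, not called), NOC3 (0.65, not called), ERB1 (0.72), RRS1 (0.75) and RIX1 (0.50, not called). By spike-ins the count was 0 without library 3 of spt8∆, 1 without library 1 of spt3∆, and 6 and 7 without library 1 or 2 of spt8∆. Of all genes 0.137%, 0.122%, 0.35% and 0.457% were higher in these settings. The groups lie in different sets of library names, so strain and set cannot be told apart.

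Between spt3∆ and gcn5∆ the overall level of the 48 genes depended on the scaling, and 12 genes were called higher in spt3∆ under both. The share of all genes called under both was not counted. By spike-ins 14 were higher in spt3∆ and none lower, against 37.3% and 9.72% of all genes, with a median of 0.29 in the 48 and 0.31 in all. With TMM 12 were higher and 12 lower, against 33.6% and 30.6%, with a median of 0.00. The 14 became 38 without library 3 of gcn5∆, where 64.3% of all genes were higher. They became 30 without both libraries that stood apart, where 57.3% of all genes were higher. Without library 1 of spt3∆, library 1 of gcn5∆ or library 2 of gcn5∆ they became 4, 5 and 7, against 24.1%, 25% and 25.7% of all genes. RRS1 differed most, 1.63 (SE 0.20, edgeR BH-adjusted p = 1.79e-08), with all spt3∆ values above those of gcn5∆. DBP3 followed with 1.04 (SE 0.19, edgeR BH-adjusted p = 3.11e-05) and LSG1 with 0.86 (SE 0.19, edgeR BH-adjusted p = 0.000417), and TIF6 differed by 0.64 (SE 0.17, edgeR BH-adjusted p = 0.00233). With TMM these 4 were 1.34, 0.75, 0.58 and 0.33, all called. The other roles were led by SPB1 (0.76), NOP13 (0.64), ERB1 (0.46, not called), NOC3 (0.31, not called) and IPI3 (0.06, not called). The smallest differences were those of RIX1 and YTM1, whose spt3∆ and gcn5∆ libraries cover the same range. RIX1 counted 7077, 4665 and 5115 in spt3∆, 3838, 4518 and 3576 in spt8∆ and 4922, 4672 and 7474 in gcn5∆ on this scale. WT had 2691, 2696 and 2207 with SM and 2376, 2677 and 2541 without SM. YTM1 had 4443, 2973 and 3075 scaled counts in spt3∆, 2465, 2614 and 2202 in spt8∆ and 2737, 2810 and 4666 in gcn5∆. It had 1591, 1610 and 1260 in WT with SM and 1258, 1406 and 1343 in WT without SM. Their log2 differences were −0.02 for RIX1 and 0.04 for YTM1 by spike-ins, and both were called lower in spt3∆ with TMM, by −0.31 and −0.25. The pair of strains is again split by the sets of library names, and strain and set cannot be told apart.

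Between spt8∆ and gcn5∆, which share a set of library names, the genes split. By edgeR with BH adjustment 3 were higher in spt8∆ and 11 lower, against 37.1% and 7.75% of all genes, with a median of −0.24 against 0.30 over all. With TMM 3 were higher and 43 lower, against 31.1% and 31.3% of all, with a median of −0.54. Higher in spt8∆ were RRS1, by 0.89 (SE 0.20, edgeR BH-adjusted p = 0.000369), TIF6 by 0.66 (SE 0.17, edgeR BH-adjusted p = 0.00202) and DBP3 by 0.59 (SE 0.19, edgeR BH-adjusted p = 0.0121), and all 3 were called higher with TMM too. The DBP3 call was lost without library 2 of spt8∆ and without library 1 or 2 of gcn5∆. NOP15 fell most, by −1.13 (SE 0.20, edgeR BH-adjusted p = 1.46e-05), and then RLP7 by −0.83 (SE 0.19, edgeR BH-adjusted p = 0.000621). In the other roles DBP9 (−0.62), YTM1 (−0.49), SDA1 (−0.71) and RIX1 (−0.52) were lower, and MAK21 (−0.43), LSG1 (0.40) and SPB1 (−0.30) led their roles without a call. RRP1 and NOP13 differed least, by 0.00 and 0.01. RRP1 had scaled counts of 1182, 960 and 906 in spt3∆, 744, 717 and 542 in spt8∆ and 508, 614 and 880 in gcn5∆. In WT RRP1 had 421, 425 and 315 with SM and 415, 445 and 482 without SM. NOP13 counted 2910, 2221 and 2086 in spt3∆, 1567, 1700 and 1385 in spt8∆ and 1113, 1359 and 2156 in gcn5∆ on this scale. WT had 1142, 1232 and 1021 with SM and 887, 1012 and 1038 without SM. For both the spt8∆ values lie inside the range of gcn5∆. Without library 3 of gcn5∆ 9 genes were higher and 7 lower with a median of 0.04. Of all genes 64.8% were then higher and 6.59% lower, with a median of 0.52. The number lower was 17 without library 1 of gcn5∆ (8.59% of all genes), and 7 and 6 without library 1 or 3 of spt8∆ (5.51% and 6.33%).

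With SM, compared with no SM in WT, few of these genes were called by spike-ins, and the direction of the set depended on the scaling. By spike-ins 11 rose and 3 fell by edgeR with BH adjustment, where 55.7% of all genes rose and 7.57% fell. The median was 0.07 in the 48 genes and 0.54 in all, and 40 of the 48 were below the median of all genes. With TMM 2 rose and 35 fell, against 41.3% and 37.3% of all, with a median of −0.43. MAK5 and SPB4, both helicases, were higher under both scalings, and RLP7, SDA1 and NOP4 lower under both. MAK5 had 14592, 9841 and 10104 scaled counts in spt3∆, 8516, 10053 and 8501 in spt8∆ and 8332, 8802 and 14045 in gcn5∆. It had 5792, 5818 and 4490 in WT with SM and 2893, 3613 and 3037 in WT without SM. MAK5 was higher in all WT libraries with SM than in any without, by 0.75 (SE 0.20, edgeR BH-adjusted p = 0.00119). SPB4 differed by 0.70 (SE 0.19, edgeR BH-adjusted p = 0.00122) and RLP7 by −0.71 (SE 0.19, edgeR BH-adjusted p = 0.00152), neither with an overlap between groups. The 5S RNP factor RRS1 (0.67), the Nop7 complex member NOP7 (0.54), IPI3 of the Rix1 complex (0.51) and the late factor RLP24 (0.58), which holds the place of a ribosomal protein, were the other role leaders that rose by spike-ins. NUG1 (0.36), SPB1 (−0.41) and MAK21 (−0.27) led their roles without a call by spike-ins. The smallest differences were those of LSG1 and RIX1, both at 0.00. NOP4 was −0.53 and SDA1 −0.52, and the 3 falls became 1 without library 2 of WT without SM or library 3 of WT with SM. Of all genes 5.9% and 4.9% fell in these settings.

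Other genes of ribosome production were counted in the same way, against the shares of all genes given above for each comparison. Without both libraries that stood apart, 23.9% of all genes rose and 26.9% fell in spt3∆ against WT. In gcn5∆ the shares were then 9.04% and 59.1%, with a median of −0.40 over all genes. Of 32 other 60S assembly factors 29 rose and none fell in spt3∆ against WT (median 0.81), 10 and 0 in spt8∆ (0.49) and 20 and 0 in gcn5∆ (0.58). With TMM 30 rose and 1 fell in spt3∆, 21 and 0 in spt8∆ and 26 and 0 in gcn5∆. Without both libraries that stood apart 29 rose and none fell in spt3∆, and 17 rose and 6 fell in gcn5∆. With SM in WT 18 rose and none fell by spike-ins (0.50), while with TMM 8 rose and 11 fell (0.00). SYO1, which escorts 2 large-subunit proteins into the nucleus, led in all 3 strains, at 1.72 in spt3∆, 0.95 in spt8∆ and 1.87 in gcn5∆, followed by the ATPase gene RIX7 in spt3∆ (1.60), NOP8 in spt8∆ (0.90) and SSF2 in gcn5∆ (1.45). The value of SSF2 is uncertain for the same reason as that of its near-identical paralogue SSF1. The largest rises with SM were those of REH1 (1.11, with TMM 0.61) and SDO1 (1.09, with TMM 0.60), which act on cytoplasmic particles. SDO1, whose product helps to release Tif6, differed from WT by −0.05 in spt3∆, 0.03 in spt8∆ and −0.33 in gcn5∆, with no call by spike-ins.

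Of 50 assembly factors of the small subunit 48 rose and none fell in spt3∆ (median 1.11), 31 and 0 in spt8∆ (0.62) and 36 and 0 in gcn5∆ (0.73). With TMM 50 rose and none fell in spt3∆, 44 and 0 in spt8∆ and 50 and 0 in gcn5∆, and without both libraries that stood apart 48 and 0 in spt3∆ and 33 and 0 in gcn5∆. With SM in WT 17 rose and 4 fell by spike-ins (0.24), while with TMM 2 rose and 25 fell (−0.26). LTV1, an export factor of the small subunit, was the largest in each strain (1.98 in spt3∆, 0.98 in spt8∆, 1.76 in gcn5∆), with UTP14 next in spt3∆ (1.92), RRP12 in spt8∆ (0.94) and BFR2 in gcn5∆ (1.47). With SM in WT, UTP14 was lower (−0.90, with TMM −1.40) and the nuclease gene NOB1 higher (0.71, with TMM 0.21, both called). The 7 specific subunits of RNA polymerase I all rose in spt3∆ (median 0.64), 2 rose in spt8∆ (0.41) and 3 rose and 1 fell in gcn5∆ (0.41). With TMM 6 rose in spt3∆, 5 in spt8∆ and 6 in gcn5∆, and none fell; without both libraries that stood apart 7 rose in spt3∆, and 2 rose and 1 fell in gcn5∆. With SM 2 rose and none fell by spike-ins (0.26), while with TMM none rose and 5 fell (−0.24). RPA34 rose by 1.35 in spt3∆, 0.81 in spt8∆ and 1.36 in gcn5∆, and RPA190 by 1.13, 0.74 and 0.58 in the same strains. RPA14 (0.69) and RPA135 (0.65) were higher with SM by spike-ins, and with TMM they were at 0.20 and 0.15 with no call.

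Few genes of the proteins that stay in the 60S subunit rose in any deletion strain. Of 76 large-subunit ribosomal protein genes 2 rose and none fell in spt3∆ against WT (median −0.11), none was called in spt8∆ by edgeR (0.02) and 40 fell and none rose in gcn5∆ (−0.40). With TMM 3 rose and 48 fell in spt3∆, 3 rose and 7 fell in spt8∆ and 2 rose and 46 fell in gcn5∆. Without both libraries that stood apart 3 rose and 23 fell in spt3∆, where 26.9% of all genes fell. In gcn5∆ none then rose and 73 fell, where 59.1% of all genes fell. With SM 18 rose and none fell by spike-ins (0.26), while with TMM 3 rose and 50 fell (−0.24). Reads from paired copies of these genes may be shared, so single members are not named. Of 7 regulators of ribosome genes TOD6, which encodes a repressor that binds PAC, rose by 1.56 in spt3∆, 0.74 in spt8∆ and 1.35 in gcn5∆, and IFH1, a coactivator of ribosomal protein genes, by 1.21 in spt3∆ and 0.72 in gcn5∆. In all 4 of the 7 rose and none fell in spt3∆ (median 0.49), 1 and 0 in spt8∆ (0.31) and 3 and 0 in gcn5∆ (−0.10). With TMM 5, 3 and 3 rose in the same strains and none fell. Without both libraries that stood apart 4 rose and none fell in spt3∆. In gcn5∆ 2 then rose and 4 fell, where 59.1% of all genes fell. With SM 2 rose and none fell by spike-ins (0.39), the activator gene SFP1 (0.92) and the kinase gene SCH9 (0.44), while with TMM 1 rose and 1 fell (−0.11), with SFP1 at 0.42 and SCH9 at −0.06.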

How the data were processed

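Gene counts were deposited by the authors as 1 table of whole-number counts per yeast gene and spike-in RNA for 15 libraries, 5 groups of 3. STAR, SAMtools and DESeq2 and the build sacCer3 are named per the submitters' processing notes, without versions; no source used here states the counted strand or the handling of shared reads. Spike-in RNAs (92, of which 74 had counts in every library) were added to a fixed mass of total RNA, per the labels' protocols. From the deposited counts, edgeR 4.0.16 (R 4.3.3; limma 3.58.1) fitted its quasi-likelihood model on all 5 groups and 6564 genes left by filterByExpr, with median-of-ratio spike-in size factors, after a test on simulated data. BH adjustment ran over all genes, with a threshold of 0.05. The common coefficient of variation was 16.1% by spike-ins and 7.86% with TMM, so the first detects less. Yeast totals of 24.8 to 45.7 M counts gave each of the 48 genes at least 260 counts. Differences are log2, spt3∆, spt8∆ or gcn5∆ minus WT, SM minus no SM.

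The 48 genes and all other lists were chosen with earlier results of these data known. Values in every library are given for 8 members listed in the opening and, per comparison, the 3 largest and 2 smallest differences; each role's largest member is named. Up to 2 called members with the largest change are named of each other list, and SDO1 in further comparisons was added after its values were seen. Of 6692 features 6008 had a symbol in RefSeq R64, whose genome gave the promoters; start codons, not transcript starts, anchor them. Alternatives were TMM, total spike-in counts, no filter, DESeq2 1.42.0, only the 2 groups compared, a replicate block and leaving out libraries. Figures were drawn with matplotlib 3.10.9.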

Additional observations from a re-analysis of the deposited data

How the results depend on the processing

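Depth was not varied; each of the 48 genes had at least 260 raw counts in every library. Of 4272 values of single members under alternatives, 3618 kept both their sign and their call. With TMM, SM in WT gave 2 higher, 35 lower and a median log2 difference of −0.43; spt8∆ against WT 44 higher; spt3∆ against spt8∆ 47 higher; spt3∆ against gcn5∆ 12 lower and a median of 0.00; spt8∆ against gcn5∆ 43 lower and a median of −0.54. The shares of all genes with TMM are those given with each comparison above. With total spike-in counts, 7 were lower with SM (12.2% of all genes) and 1 in spt3∆ against gcn5∆ (10.8%). With only the 2 groups compared, 10 were lower with SM (12.3% of all genes) and 44 higher in spt8∆ against WT (24.2%). In spt3∆ 27 were then higher against spt8∆ (4%) and 4 against gcn5∆ (21.2%). In spt8∆ against gcn5∆ 6 were lower (5.87%). The setting without library 1 of spt3∆ and library 3 of gcn5∆ was chosen after seeing the data. So were the same settings for the other lists and for 2-fold counts. Leaving out both libraries gave 3 lower in gcn5∆ against WT (59.1% of all genes) and 27 higher in spt3∆ against spt8∆ (2.98%). Against gcn5∆ 30 were higher in spt3∆ (57.3%) and 10 in spt8∆ (70%), the latter with a median of 0.04 (0.53 over all genes). Without library 1 of spt3∆ alone 1 was higher against spt8∆ (0.122%), with the same median of 0.33. The spread is shared over all groups, so leaving out a library outside a comparison also changes its calls. DESeq2 and no filter kept every count of members within 1.5 times.

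Leaving out 1 library gave 8 to 11 higher and 1 to 3 lower with SM (median −0.01 to 0.17). Of all genes 47.8% to 57.2% were then higher and 4.9% to 7.62% lower. For spt3∆ against WT it gave 46 to 47 higher (0.94 to 1.21), for spt8∆ 5 to 23 (0.46 to 0.64) and for gcn5∆ 37 to 42, with 1 to 2 lower (0.62 to 1.03). The shares of all genes higher were 11.5% to 24.5% in spt3∆, 1.8% to 4.78% in spt8∆ and 6.74% to 13.2% in gcn5∆. In gcn5∆ 22.2% to 52.3% of all genes were lower. For spt3∆ against spt8∆ it gave 0 to 12 higher (0.33 to 0.62), for spt3∆ against gcn5∆ 4 to 38 higher and 0 to 1 lower (0.12 to 0.57), and for spt8∆ against gcn5∆ 2 to 9 higher and 6 to 17 lower (−0.38 to 0.04). The shares of all genes higher were 0.122% to 1.11%, 24.1% to 64.3% and 24.9% to 64.8% in the same order. Those lower were 7.46% to 10.9% in spt3∆ and 5.51% to 8.81% in spt8∆ against gcn5∆.

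Between same-numbered libraries 11 of 30 correlations of deviations were above 0.1 (−0.519 to 0.446). Between different numbers 21 of 60 were (−0.506 to 0.518). No pairing by number was seen, but with 3 libraries a group this check could miss one. With the number as a replicate block, 47 were higher in spt3∆ against WT (18.7% of all genes), 22 in spt8∆ (4.66%), 39 in gcn5∆ (9.23%) and 11 with SM (53.9%). In spt3∆ 9 were higher against spt8∆ (0.762%) and 13 against gcn5∆ (34.2%), and 10 were lower in spt8∆ against gcn5∆ (7.02%).

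Under TMM the sign turned, with a call in at least 1 scaling, for SM in DRS1 (−0.47), DBP9 (−0.38), DBP10 (−0.44), DBP3 (−0.36), NOG1 (−0.48), NOG2 (−0.39), NOC3 (−0.41), YTM1 (−0.34), EBP2 (−0.42), NOP13 (−0.29), RPF1 (−0.36), RPF2 (−0.42), ARX1 (−0.40) and MRT4 (−0.25). In spt3∆ against gcn5∆ it turned for NOG1 (−0.23), NOP7 (−0.21), YTM1 (−0.25), BRX1 (−0.18), NOP12 (−0.12) and IPI3 (−0.24), and in spt8∆ against gcn5∆ for NOG2 (−0.20), RRP1 (−0.30), NOP13 (−0.28), MAK16 (−0.26), RLP24 (−0.27) and REI1 (−0.28). TMM subtracts the shift in the median of all genes; the cause of that shift was not tested.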

Other observations

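Of the 48 genes, 22 have a divergent gene as their upstream neighbour, and 2 upstream neighbours belong to the other lists used here. The 48 genes lie on 14 chromosomes. An annotated antisense feature overlaps 5 of them, HAS1, RRP14, NOP4, NOP13 and REI1; its counts were 20.8% of those of the member for NOP4 and at most 4.97% for the others. Per kb of coding length, the median level of the 48 genes was 3088 scaled counts in spt3∆, 2022 in spt8∆, 2356 in gcn5∆, 1408 in WT with SM and 1314 in WT without SM. RRP14 was the lowest of the 48 in every group on that scale, and TIF6 the highest in each group except gcn5∆, where NOG1 was, at 7907.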
